A study of Mus musculus with 2 samples.

Results

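The SoxC, SoxD and SoxE genes encode transcription factors with an HMG box, a DNA-binding domain related to that of the sex-determining factor Sry. SoxC factors (Sox4, Sox11 and Sox12) are encoded without introns in the coding part and act in neural, mesenchymal and pancreatic progenitors. SoxD factors (Sox5, Sox6 and Sox13) have no activation domain of their own, and their long forms carry a coiled coil through which they pair, whereas short forms of Sox5 lack it. SoxE factors act in neural crest, cartilage and epithelial progenitors, and Sox9 with Sox5 and Sox6 drives cartilage matrix genes. In the gut Sox9 is known from the pyloric sphincter, from pancreatic and bile ducts and from epithelial progenitors.

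The 8 genes described here were chosen by name and looked up by identifier in both deposited gene tables, which hold 43346 genes. All 8 were found. Sox10, the remaining SoxE gene, is given with the other Sox genes. The material was total RNA from whole stomachs of B6NCrl mouse embryos at embryonic day 15.5, all of 1 group, pooled over both sexes, with no treatment, mutant or second stage. Replicate 1 was a pool of 78 embryos and replicate 2 a pool of 62, so the design gives levels and the difference between 2 pools, not a contrast of conditions. The libraries held 43209506 and 44257493 counts on genes, with spike-in RNA at 1.88% and 3.0% of all counts. The 6 genes fixed as markers of stomach (Barx1, Gata4, Sox2, Trp63, Tff1 and Krt8) were all detected, with medians of 85.5 and 84.1 TPM, but genes of pancreas, liver, blood and striated muscle were also present, so a level is that of the dissected pool. In such bulk samples fewer cells of a type and less RNA per cell cannot be told apart. TPM is a transcript level corrected for length, scaled to a fixed total per library, and ± gives the SD between both pools (n = 2).

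The coding sequences of the HMG box are shown first, because likeness between members could limit how far reads can be assigned to single members. The most alike windows of 100 coding bases within each subfamily are printed in mm10, on the coding strand, with capitals marking bases that differ from the first gene of the set. The length of 100 bases was taken from the tables, in which the effective length was the length minus 99. In SoxC the window lay at chr13:28952754-28952853 in Sox4, chr12:27342171-27342270 in Sox11 and chr2:152397488-152397587 in Sox12, all on the minus strand.
Sox4: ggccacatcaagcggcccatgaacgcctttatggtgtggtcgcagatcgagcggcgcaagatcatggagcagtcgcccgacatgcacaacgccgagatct
Sox11: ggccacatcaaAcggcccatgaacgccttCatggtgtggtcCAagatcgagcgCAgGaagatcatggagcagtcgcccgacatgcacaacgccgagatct
Sox12: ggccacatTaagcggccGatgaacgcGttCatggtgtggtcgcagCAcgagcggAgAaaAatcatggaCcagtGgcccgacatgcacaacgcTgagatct

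Sox11 differed from Sox4 at 7 of these 100 bases and Sox12 at 12. The Sox4 and Sox11 windows were the closest of all 28 pairs of members. The longest run of identical bases between any transcripts of these genes was 48, in the coding parts of Sox4 and Sox11, followed by 33 between Sox4 and Sox12. Among the other Sox genes the longest run shared with a member was 44 bases, between Sox9 and Sox10. Each of these runs was shorter than 100 bases. The SoxD windows lay at chr6:143841184-143841283 (Sox5), chr7:115489673-115489772 (Sox6) and chr1:133385476-133385575 (Sox13), on the minus strand, and the SoxE windows at chr11:112782887-112782986 on the plus strand (Sox9) and chr17:25570139-25570238 on the minus strand (Sox8).
Sox5: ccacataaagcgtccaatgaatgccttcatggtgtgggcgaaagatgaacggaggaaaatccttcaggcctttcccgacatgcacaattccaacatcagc
Sox6: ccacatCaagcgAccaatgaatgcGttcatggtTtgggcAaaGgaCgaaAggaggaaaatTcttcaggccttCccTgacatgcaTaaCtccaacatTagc
Sox13: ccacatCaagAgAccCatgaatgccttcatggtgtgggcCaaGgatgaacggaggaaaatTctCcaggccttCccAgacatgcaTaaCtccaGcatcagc
Sox9: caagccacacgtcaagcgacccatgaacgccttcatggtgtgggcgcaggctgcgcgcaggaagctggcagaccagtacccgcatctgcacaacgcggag
Sox8: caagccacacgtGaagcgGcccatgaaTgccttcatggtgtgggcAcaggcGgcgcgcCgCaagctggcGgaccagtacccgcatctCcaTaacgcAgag

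Sox6 differed from Sox5 at 14 bases and Sox13 at 13, and Sox8 differed from Sox9 at 11. The deposited posterior SD of the count, a measure of how uncertainly reads were divided between features, was 0 in both libraries for Sox11, Sox12, Sox6, Sox13, Sox8 and Sox9. It was 0.76 and 1.29 counts for Sox5 and 52.43 and 54.84 counts for Sox4. These values were the same as those of Sox5os1 and Gm26735, genes on the opposite strand that overlap exons of Sox5 and Sox4.

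All 8 members were expressed at 1 TPM or more in both libraries, as were 64.5% of the 21474 protein-coding genes. Sox4, Sox9 and Sox11 were the highest members, and the other 5 were lower. Sox4 stood above 81.4% of protein-coding genes by mean TPM, Sox9 above 81.3% and Sox11 above 75.7%, while Sox12, Sox13, Sox6 and Sox8 lay near the middle, between 48.6% and 53.6%.

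**Figure D1:**
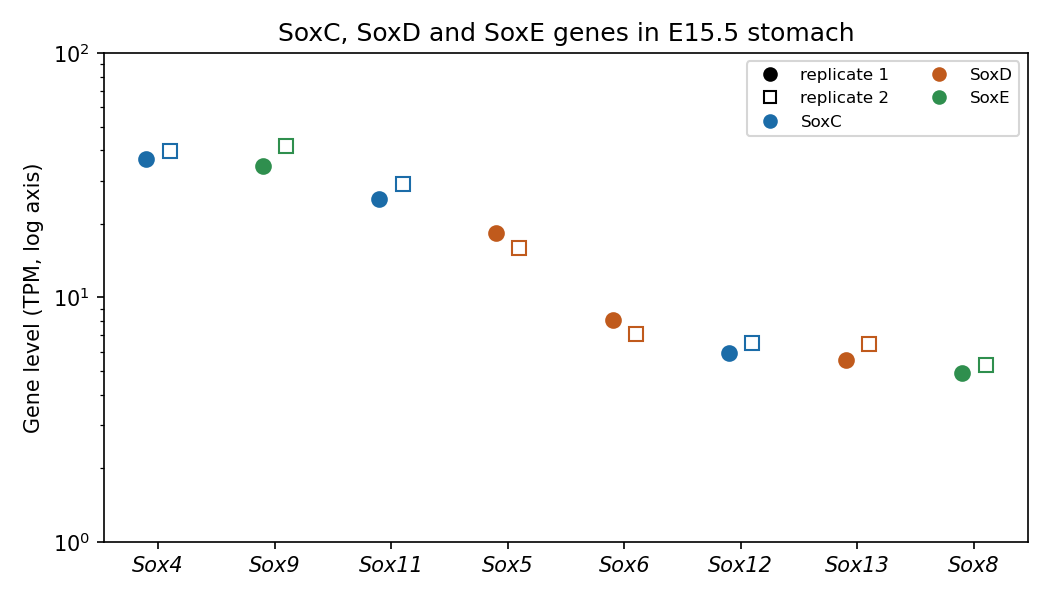
Level of each member in TPM (log axis), with filled circles for replicate 1 and open squares for replicate 2, colours for the subfamilies, and genes ordered by mean. Sox4, Sox9 and Sox11 lie between 25.3 and 41.45 TPM, and the 4 lowest genes between 4.92 and 8.07 TPM.

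Among the SoxC genes, Sox4 (ENSMUSG00000076431.4; mm10 chromosome 13, 28948919 to 28953713, minus strand), a regulator of progenitor survival and of pancreatic endocrine cells, reached 36.69 TPM (replicate 1) and 39.64 TPM (replicate 2). These levels rest on 5318.71 and 5772.25 expected counts. Sox11 (ENSMUSG00000063632.6; chromosome 12, 27334264 to 27342574, minus strand), known from neural and mesenchymal development, was at 25.3 and 29.05 TPM. It had the most counts of all members, 6414 and 7398, over a transcript of 8311 bases. Sox12 (ENSMUSG00000051817.8; chromosome 2, 152393611 to 152398063, minus strand) was far lower, at 5.93 and 6.52 TPM from 786 and 860 counts. Its 2 transcripts encode the same 314 codons.

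Part of the Sox4 level is uncertain. Of the exonic bases of Sox4, 2616 overlap exons of Gm26735, a long noncoding RNA on the opposite strand, and the tables gave both genes the same posterior SD. Gm26735 was at 17.95 and 20.62 TPM, and its 1413.29 and 1630.75 counts came to 26.6% and 28.3% of the Sox4 counts. The strand setting was not given in the sources used here, so reads of the pair cannot be told apart. For Sox8 the antisense gene 2810468N07Rik overlaps by 329 exonic bases and was at 5.0 and 5.52 TPM, with 193 and 214 counts and a posterior SD of 0 for both genes. Sox5os1, which overlaps Sox5 exons by 1330 bases, was listed at 0 counts. Its posterior SDs of 0.76 and 1.29 counts were those of Sox5 as well.

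Among the SoxE genes, Sox9 (ENSMUSG00000000567.5; chromosome 11, 112782224 to 112787760, plus strand) was at 34.49 and 41.45 TPM from 4297 and 5188 counts on its single annotated transcript of 507 codons. Sox8 (ENSMUSG00000024176.6; chromosome 17, 25565892 to 25570686, minus strand), which overlaps Sox9 in function in the testis and acts in neural crest, was the lowest member at 4.92 and 5.29 TPM, from 386 and 366 counts. Sox10, which marks neural crest and enteric glia, was between them at 7.4 and 7.41 TPM (597 and 601 counts).

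Among the SoxD genes, Sox5 (ENSMUSG00000041540.12; chromosome 6, 143828425 to 144781977, minus strand) was at 18.33 and 15.91 TPM from 1082 and 1020 counts. Sox6 (ENSMUSG00000051910.9; chromosome 7, 115470872 to 116038796, minus strand), known as a repressor of embryonic globins and of slow muscle genes besides its role in cartilage, was at 8.07 and 7.09 TPM from 1208 and 1014 counts. Sox13 (ENSMUSG00000070643.7; chromosome 1, 133382303 to 133424377, minus strand), known from gamma delta T cells and as an islet cell autoantigen, was at 5.57 and 6.47 TPM from 496 and 537 counts. Sox5 was thus higher than Sox6 in TPM in both libraries, although its count was lower in replicate 1.

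In the order of mean TPM, from Sox4 through Sox9, Sox11, Sox5, Sox6, Sox12 and Sox13 to Sox8, the 2 values overlapped for 2 of the 7 neighbouring pairs. Sox4 (38.2 ± 2.09 TPM) and Sox9 (38 ± 4.92 TPM) changed places between the libraries, with a log2 ratio of 0.01 ± 0.11. Sox12 (6.22 ± 0.417 TPM) and Sox13 (6.02 ± 0.636 TPM) also overlapped, at 0.05 ± 0.06. The widest gaps were those of Sox5 over Sox6 (1.17 ± 0.01) and of Sox11 over Sox5 (0.67 ± 0.29). From transcripts with a complete coding sequence, however, Sox5 was below Sox6, at 2.83 against 7.59 TPM. Of that Sox6 level, 4.73 and 4.36 TPM lay on Sox6-203, which at 2825 bases is shorter than the long Sox5 transcripts. By expected counts the complete transcripts of Sox5 held 617.11 and 618.78, against 1208 and 1014 for Sox6. No test was made of these differences, because no exact test on 2 values can reach 0.05.

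Summed over members, SoxC held 67.92 and 75.21 TPM, SoxE without Sox10 39.41 and 46.74 TPM, and SoxD 31.97 and 29.47 TPM. SoxC therefore took 48.8% and 49.7% of the TPM of the 8 genes. The log2 ratio of SoxC to SoxE was 0.74 ± 0.07, that of SoxC to SoxD 1.22 ± 0.19 and that of SoxD to SoxE -0.48 ± 0.26, and each had the same sign in both libraries. With only transcripts that have a complete coding sequence, an alternative chosen after the data were seen, SoxC to SoxD was 2.24 and SoxD to SoxE -1.5.

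Most of the Sox5 TPM was assigned to transcripts without a complete coding sequence. Only 15.50% of its TPM in replicate 1 and 17.72% in replicate 2 lay on the 4 long transcripts with a complete coding sequence of at least 600 codons (16.6% ± 1.57). Transcripts with no annotated coding sequence took 63.18% and 60.75%, and those with an incomplete one 21.32% and 21.53%. By expected counts, which are not divided by length, the long transcripts held 58.8% ± 2.57 (617.11 of 1082 counts in replicate 1 and 618.78 of 1020 in replicate 2). The share thus depended strongly on the unit, at 16.6% by TPM and 58.8% by expected counts.

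**Figure D2:**
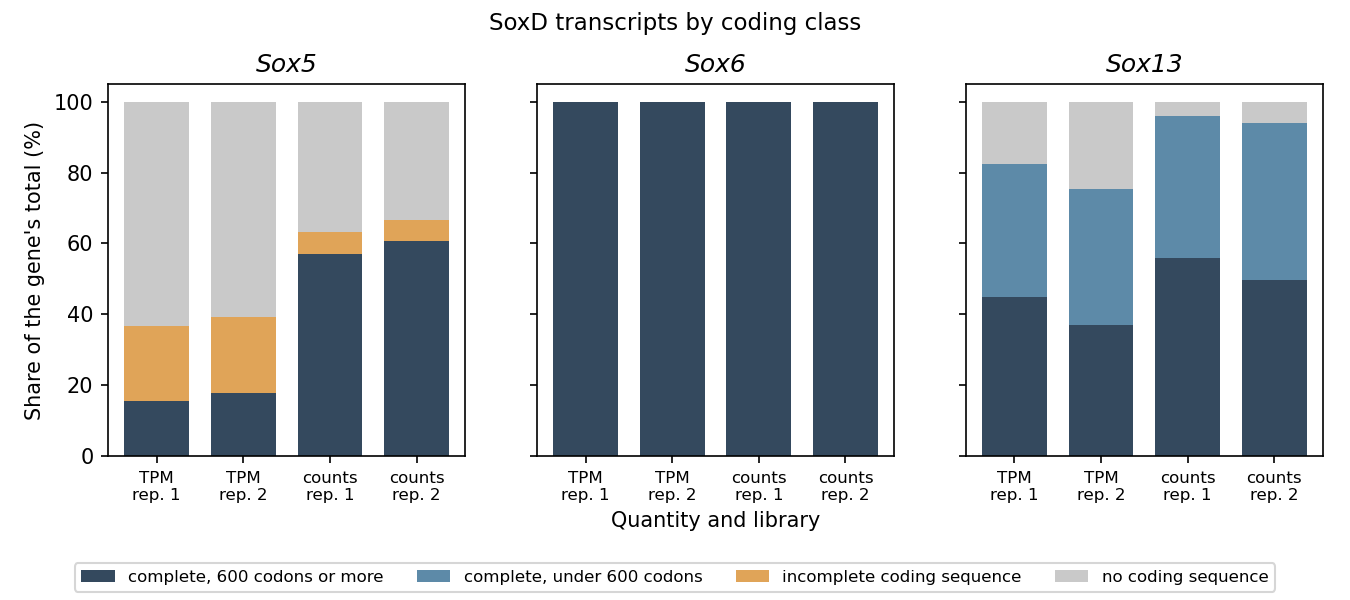
Share of each SoxD gene's TPM or expected counts (%, vertical axis) on transcripts of 4 coding classes, for each library. For Sox5 the long class takes 15.50% and 17.72% of TPM but 57.0% and 60.7% of counts, while for Sox6 it takes 100% of both.

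Several short annotated transcripts took a larger share of TPM than of counts. Sox5-208, a processed transcript of 351 bases and 3 exons, took 24.95% and 32.81% of the Sox5 TPM on 35.58 and 40.78 counts. Sox5-211, of 669 bases, took 21.32% and 21.53% on 68.78 and 60.53 counts. Sox5-213, a retained-intron transcript of 633 bases, took 15.02% of TPM in replicate 1 and 3.07% in replicate 2, on 45.4 and 8.08 counts. The other Sox5 transcripts at 5% or more in a library were Sox5-201, Sox5-205, Sox5-207 and Sox5-209, at 5.43% to 11.09%.

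Within the long class the estimates of single transcripts were loose. Sox5-201, with 763 codons the longest protein, was at 1.0 TPM in replicate 1 (deposited interval 0.0532 to 1.77) and 1.76 TPM in replicate 2 (0.892 to 2.32). Sox5-205, with 679 codons, was at 1.63 TPM (0.250 to 2.15) and 0.94 TPM (2.07e-04 to 1.35). The intervals of each transcript overlapped between the libraries. Their class sum was steadier, at 2.85 and 2.82 TPM.

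The complete short form Sox5-204, with 392 codons, was listed at 0 counts in both libraries, with deposited upper bounds of 0.150 and 0.176 TPM. Its start site was nevertheless represented, because Sox5-203, Sox5-206 and Sox5-211 begin within 500 bases of it. Together the 4 transcripts took 23.09% and 23.39% of the Sox5 TPM and 7.41% and 6.97% of its counts. Sox5-211 has an annotated reading frame of 184 codons whose end is not known, so whether its reads came from a short or another form was not tested.

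All 5 Sox6 transcripts in the tables encode long forms, of 785 to 827 codons, so the long share was 100% in both libraries. The later annotation M21 lists 16 Sox6 transcripts, and those outside the deposited tables were not analysed here. Sox6-203 led with 58.61% and 61.42% of the TPM (4.73 and 4.36 TPM), followed by Sox6-204 with 23.50% and 27.66%. Sox6-203 is 2825 bases long and Sox6-204 8079 bases, and by counts Sox6-204 was ahead, at 467.38 and 485.43 against 398.18 and 368.27. Sox6-202 went from 312.87 to 105.21 counts, with deposited intervals of 0.751 to 1.75 TPM and 0.110 to 0.758 TPM that overlap narrowly. Sox6-205 was at 2.37% and 5.01%.

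**Figure D3:**
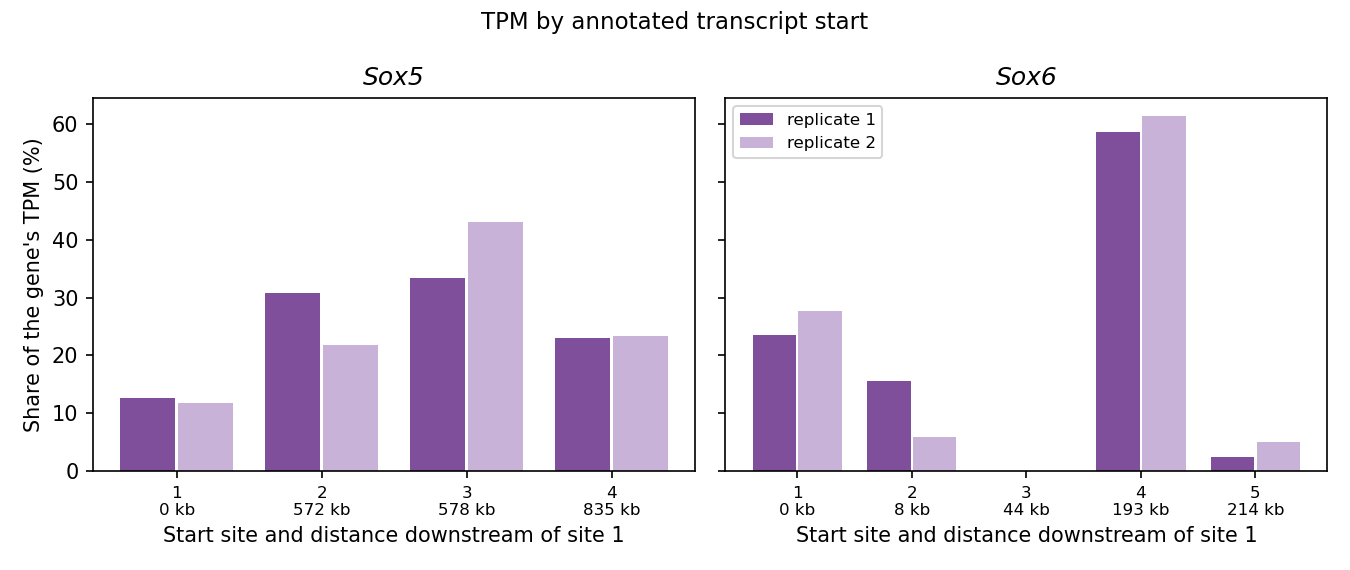
Share of the TPM of Sox5 and Sox6 (%, vertical axis) by annotated transcript start, numbered from the most upstream site with its distance downstream in kb, for replicate 1 (dark) and replicate 2 (light). By TPM, Sox6 site 4 holds 58.61% and 61.42%, whereas no Sox5 site holds more than 43.07%. By expected counts, which are not drawn, Sox5 site 2 held 61.7% and 62.8%. Sox6 site 4 held 33.0% and 36.3% of counts, behind site 1 at 38.7% and 47.9%.

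For Sox13, the 613-codon transcript Sox13-205 took 44.93% and 37.09% of the TPM and the 504-codon Sox13-203, which starts further downstream, 37.38% and 38.43%. Sox13-204, with no coding sequence, took 17.70% and 24.48% on 20.04 and 32.30 counts. Sox12-202 took 77.74% and 63.83% of Sox12, and Sox12-201 the rest. Sox8-201, the full-length form of 464 codons, took 82.68% and 69.32% of the Sox8 TPM, and the 221-codon Sox8-202 17.32% and 22.93%. By expected counts Sox8-201 held 94.3% and 90.1%, and Sox8-202, of 928 bases, 5.65% and 8.52%.

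Restricted to complete coding transcripts, Sox5 stood last in place of the fourth, at 2.83 ± 0.0212 TPM against 17.1 ± 1.71 TPM for the gene. This place is by TPM and depends on the lengths of the annotated transcripts. By expected counts Sox5 was not last, with 617.11 and 618.78 on complete transcripts against 386 and 361 for Sox8. Sox13 was at 4.74 ± 0.219 TPM, with 82.2% and 75.6% of its gene level. The complete transcripts of Sox4, Sox11, Sox12, Sox6 and Sox9 held all of their gene's TPM, and those of Sox8 held 100% and 92.2%.

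**Figure D4:**
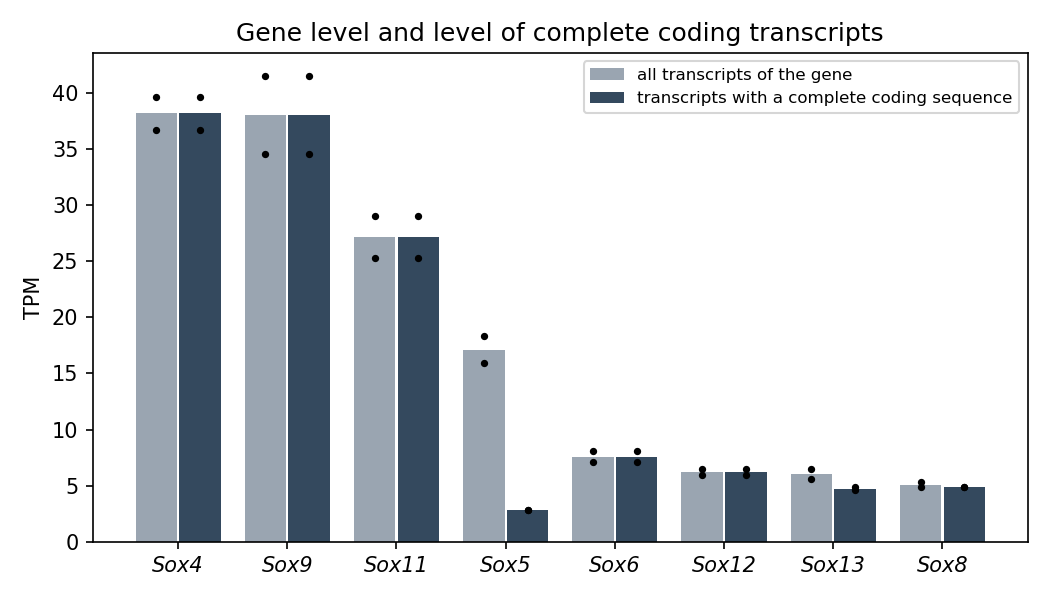
Mean TPM of each member from all its transcripts (grey) and from transcripts with a complete coding sequence (dark), with points for the 2 libraries and an axis from 0. Sox5 goes from 17.1 to 2.83 TPM, while Sox4, Sox9 and Sox11 keep their level.

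The annotated starts differed in CpG content, and the 100 bases upstream of 4 of them are printed because transcripts were grouped by start. Use of a start was not measured directly, since shares come from reads divided among annotated transcripts. The sequences come from RefSeq promoters of GRCm38.p6, all on the minus strand, with CG dinucleotides in capitals, and 7 of the 8 members matched that table. They are the Sox6 starts of Sox6-204 (chr7:116038745-116038844), Sox6-202 (chr7:116031048-116031147) and, within 50 bases, Sox6-203 (chr7:115846141-115846240), and the short Sox5 start of Sox5-204 (chr6:143947107-143947206). Sox5-204 itself was at 0 counts. Its start was the only Sox5 entry among these promoters, and the transcripts there held 7.41% and 6.97% of the Sox5 counts. The Sox5 starts with most of the counts are therefore not shown.
Sox6-204 start: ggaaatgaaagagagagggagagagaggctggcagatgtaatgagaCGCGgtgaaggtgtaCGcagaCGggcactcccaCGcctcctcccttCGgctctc
Sox6-202 start: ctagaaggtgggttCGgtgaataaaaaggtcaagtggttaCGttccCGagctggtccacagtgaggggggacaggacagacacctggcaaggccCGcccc
Sox6-203 start: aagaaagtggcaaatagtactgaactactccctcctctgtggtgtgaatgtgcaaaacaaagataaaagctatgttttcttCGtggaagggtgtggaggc
Sox5-204 start: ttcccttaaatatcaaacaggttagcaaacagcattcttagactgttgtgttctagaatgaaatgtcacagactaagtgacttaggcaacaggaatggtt

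Over the whole 300-base promoter window (250 bases before to 50 after the start), the motif CG, which reads the same on both strands, occurred 11 times at Sox6-204 and 13 times at Sox6-202. It occurred 2 times at Sox6-203 and 3 times at the short Sox5 start. Of 32851 promoters of this length, 41.4% held at least 11, 37.9% at least 13, 85.9% at least 2 and 76.7% at least 3, and the median was 7. The Sox12 promoter held 47, a number reached by 1.44% of promoters, and that of Sox13 40 (3.91%). The Sox11 and Sox8 promoters held 21 each (24.8%) and that of Sox4 12 (39.6%). The Sox13 and Sox11 entries had no start of a transcript in the deposited data within 50 bases. These counts describe the sequence and say nothing of which factor acts there.

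Between the 2 pools of stomachs none of the members differed by 2-fold, the limit for a call together with an adjusted p below 0.05. A two-sided binomial test, exact and run on rounded counts, was used with Benjamini-Hochberg adjustment over 20918 genes. It called 6.72% of them, 169 higher and 1237 lower in replicate 2. The edgeR exact test with the dispersion common to all genes also called 0 members, against 3.28% of genes. At an unadjusted p below 0.05 the binomial test gave 5 members, against 40.1% of genes, and the edgeR test 0, against 6.89%. These tests compare 2 libraries, not conditions.

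Without the limit on size, 4 of 8 members passed an adjusted p of 0.05 in the exact binomial test, against 32.0% of all tested genes. Among the 10538 genes with 700 to 14000 summed counts, the range that holds all members, 37.3% passed. Ratios are relative to TMM library sizes, which place the middle gene near 0, and with spike-in totals that middle moved by -0.68 and all 8 members were lower in replicate 2. Sox9 was higher in replicate 2 by a log2 ratio of 0.23 (95% counting interval 0.17 to 0.29; adjusted p = 2.26e-13, exact binomial test), but was at -0.45 with spike-in totals. Sox11 was higher by 0.16 (0.12 to 0.21; adjusted p = 4.36e-10, exact binomial test; -0.52 with spike-in totals) and Sox4 by 0.08 (0.02 to 0.13; adjusted p = 0.0216; -0.60 with spike-in totals). Sox6 was lower, at -0.29 (-0.42 to -0.17; adjusted p = 1.37e-05, exact binomial test; -0.97 with spike-in totals). Sox5 (-0.13), Sox8 (-0.12), Sox12 (0.09) and Sox13 (0.07) did not pass. With spike-in totals these were at -0.81, -0.80, -0.59 and -0.61, and all 8 members passed an adjusted p of 0.05 without the limit on size. The share of all genes passing that way is not given here, so the 8 cannot be read as particular to the members. With the limit, spike-in totals called 3504 of 20918 genes and 0 members. With the edgeR exact test, whose dispersion contains these same differences (coefficient of variation 0.197), the adjusted p was 1.00 for every member. The median log2 ratio was 0.07 over members and -0.003 over all tested genes.

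**Figure D5:**
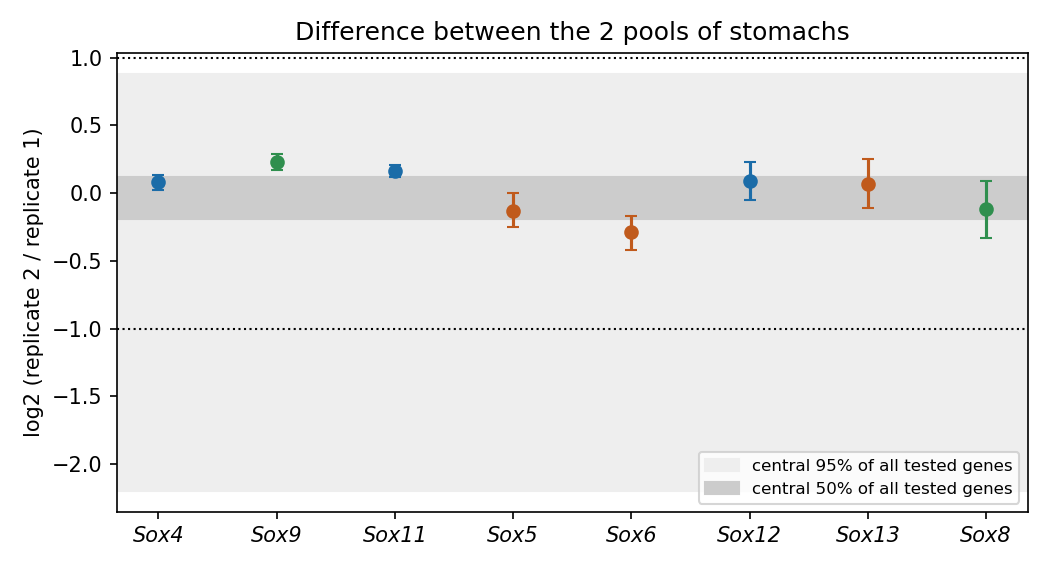
Log2 ratio of replicate 2 to replicate 1 for each member, with 95% exact counting intervals as bars, dotted lines at the 2-fold limit, and grey bands for the central 95% and central 50% of all 20918 tested genes. All members lie between -0.29 and 0.23, inside the wider band.

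Genes of tissues in which members are known also had ratios away from 0, given here with TMM sizes. The 7 genes of pancreatic progenitors and ducts, with Cpa1 (600.39 and 878.37 TPM), Spp1 and Ptf1a highest, had a median log2 ratio of 0.46 and were higher in replicate 2 for 7 of 7, summing to 787.9 and 1157.2 TPM. The 5 genes of pyloric mesenchyme, led by Bmp4, Nkx2-5 and Bmpr1b, had a median of 0.30 and were higher for 5 of 5, at sums of 63.0 and 72.3 TPM. Both lists had 0 called members. Sox9, at 0.23, had a ratio of the same sign, and the part of either tissue in it was not tested. For Sox6, the 10 genes of the globin switch had a median of -0.80 and were lower for 9 of 10, with Klf1 (-1.46), Gata1 (-1.38) and Hba-a1 (-1.02) called by the binomial test. The edgeR exact test kept the calls of Klf1 and Gata1 but not that of Hba-a1 (adjusted p = 0.259). The highest genes of the list were Hba-a2 (17909.75 and 10052.75 TPM), Hbb-bs (8558.12 and 5081.19 TPM) and Hba-a1 (7703.43 and 3891.96 TPM), and reads of the near-identical Hba-a1 and Hba-a2 are divided with uncertainty. Of the 3 embryonic globins, Hbb-y was at 0.49, Hbb-bh1 at -0.23 and Hba-x at -0.02, and none was called. The 8 striated muscle genes had the opposite sign, with a median of 0.70 and 3 called higher, namely Acta1 (1.33), Myh3 (1.90) and Myog (1.69), by both tests. Acta1, Tnnt2 (15.27 and 21.05 TPM) and Tnni1 (7.21 and 12.41 TPM) were the highest of them. Whether blood or muscle in the pools contributed to the Sox6 difference was not tested. Squamous forestomach genes (median -0.73, with 2 of 6 called lower, Krt4 and Krt13, of which Krt13 was not called by the edgeR exact test, adjusted p = 0.259; highest Krt15, at 829.28 and 568.8 TPM) and liver genes (median -1.55, with 5 of 6 called lower by both tests, Alb, Afp, Apoa2, Trf and Ahsg) also differed, and their part in the members' ratios was not tested.

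Cartilage matrix genes, the best known shared targets of Sox9, Sox5 and Sox6, were low. Of 12, 8 were detected, with medians of 1.82 and 2.29 TPM. Col9a2 (14.9 ± 2.25 TPM), Col11a1 (11.7 ± 0.884 TPM) and Col9a3 (10.1 ± 3.37 TPM) were highest. The cartilage-defining genes Acan and Matn1 were at 0.49 and 0.85 TPM and at 0.03 and 0.05 TPM, and Col2a1 at 2.08 and 2.68 TPM. All 11 members with enough counts had a positive log2 ratio (median 0.41), and 0 were called.

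The 3 target genes known for SoxC factors were all detected, with Tead2, a Hippo pathway effector, at 100.75 and 115.33 TPM, Tubb3, a neuronal tubulin, at 45.67 and 46.51 TPM and Dcx, a marker of young neurons, at 3.96 and 6.17 TPM. Their median log2 ratio was 0.23, and 0 were called. The 9 genes of enteric glia and neural crest, in which Sox8 and Sox10 are known to act, were all above 1 TPM (medians 8.71 and 11.3), with Ednrb, Fabp7 and Erbb3 highest. Their median log2 ratio was 0.07, with 5 higher and 4 lower and 0 called. All 6 endocrine pancreas genes were detected (medians 67.9 and 80.9 TPM; highest Ins2, Gcg and Iapp) and had a median log2 ratio of 0.32 with 0 called. Of 6 lymphoid genes 1, Cd3e (1.14 and 1.88 TPM), was detected, Il7r was at 0.99 and 0.77 TPM and Cd3d at 0.11 and 0.03 TPM, and the medians were 0.0950 and 0.02 TPM. Rag1 was called lower, on 17 and 2 counts, but not by the edgeR exact test (adjusted p = 0.0897).

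With only 2 libraries a pattern across samples could not be compared. The distance between pairs of log2(TPM + 0.1) values, over 94 genes of the lists, finds genes of like level, whichever way they differ between the pools. By it the nearest genes were Bmp4 and Gata4 for Sox4 (distances 0.28 and 0.37) and also for Sox9 (0.33 and 0.26). For Sox11 they were Ptf1a (0.21) and Sox18 (0.32), for Sox6 Sox10 (0.14) and Sox2 (0.47), and for Sox8 Sox21 (0.08) and Grem1 (0.17).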

How the data were processed

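Gene and transcript tables of 2 libraries were used. Per the labels, RNA was extracted with a mirVana kit, the fraction above 200 nucleotides was taken, and 10 ng with spike-ins was the input. The protocols in the labels also cite the manual of a SMARTer Ultra Low RNA kit. Per the text file deposited beside the tables, reads had been aligned to the transcriptome of annotation M4 on mm10. For the aligner, the quantification program and strandedness, the entry is: not given in the sources used here. Deposited expected counts are estimates with shared reads divided among features, and the authors also deposited TPM and FPKM, scaled by effective length over all features. The deposited percent gives each transcript's share of its gene's TPM. The deposited interval bounds and posterior SDs (unit score) come without a stated level.

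Symbols, coordinates and coding classes came from GENCODE M21, matched for 42462 of 43346 genes (98.0%), and sequences from GENCODE M21 transcripts and RefSeq promoters. Counts were rounded for tests, and spike-ins and features without a gene (1.95e-04% and 1.86e-04% of counts) were left out. TMM sizes (edgeR 4.0.16) over genes whose 2 counts sum to 10 or more, and a prior count of 0.5 were used for ratios, and the exact binomial test (scipy 1.17.1) was run over all of these genes with Benjamini-Hochberg adjustment. It was tested on simulated counts that held counting error only. That check could not show how the test behaves where pools also vary, as these do. Intervals are exact and cover counting error only, so variation between pools is left out. Reads are not marked for PCR copies, so even the counting error may be wider than the intervals show. The 2 pools are biological replicates per the labels. DESeq2 1.42.0 size factors, library totals, spike-in totals, other filters, units, class limits and the edgeR exact test were alternatives. The named genes were the members, the other Sox genes, the 3 highest and the called genes of 12 further lists, overlapping genes, transcripts at 5% of TPM or more (20% outside Sox5 and Sox6) and the 2 nearest list genes of each member, which for Sox5, Sox12 and Sox13 are not reported here. Members and lists were chosen with earlier results of these data known. Acan, Matn1, Col2a1, Hbb-y, Hbb-bh1, Hba-x and transcripts below these shares were named after their values were seen.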

Additional observations from a re-analysis of the deposited data

How the results depend on the processing

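Of the settings tried, detection of all 8 members held at 0.5 TPM, 1 FPKM, 1 CPM, posterior-mean TPM, complete coding transcripts and with either library alone. At 5 TPM it was 7. The long share of Sox5 was 58.8% by expected counts and 100% among complete coding transcripts only, while without replicate 1 or 2 it ranged from 15.5% to 17.7%. The log2 ratio of SoxC to SoxD was 2.31 by CPM, 1.01 and 0.96 as a mean of log2(TPM + 0.1) and log2(TPM + 1), and 2.24 from complete coding transcripts. SoxC to SoxE was 1.38 by CPM and 0.42 and 0.37 as these means. SoxD to SoxE was -0.93 by CPM and -1.5 from complete coding transcripts. All of these kept their sign. Spike-in totals moved the median log2 ratio of all genes by -0.68. With them Sox4 (-0.60), Sox11 (-0.52), Sox12 (-0.59), Sox13 (-0.61) and Sox9 (-0.45) turned to lower in replicate 2. The cause of this shift was not tested. In this setting 0 members were called, against 3504 of 20918 genes. The other settings of the pool comparison also called 0 members, against 687 genes (edgeR exact test) to 1460 genes (no filter). The order of levels could not be judged by ranges with 1 library. No paired analysis was possible because there is only 1 group.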

Other observations

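Other Sox genes in the same pools are given here by subfamily, as levels without a test. Sox18, Sox17 and Sox7, the SoxF factors of endothelium (Sox17 also of endoderm), were at 24.8 ± 2.02, 11.2 ± 0.106 and 9.67 ± 1.46 TPM (SD, n = 2). Sox2, a regulator of foregut epithelium, was at 10.48 and 8.66 TPM, and Sox21 at 5.06 and 5.05 TPM. Sox15 was at 4.93 and 3.05 TPM, from 116 and 72 counts. Sox1, Sox3, Sox14 and Sox30 were at or below 0.20 TPM in both libraries, and the sex-determining gene Sry had 0 counts in both, where a count of 0 allows up to 3 counts. In all, 7 of the 12 other Sox genes reached 1 TPM in both libraries, against 64.5% of protein-coding genes. Of the 9 with enough counts, 0 were called different between the pools by the binomial test, against 6.72% of all tested genes. With so few genes, neither number can be read as particular to them. None of the SoxF genes reached the level of Sox4 or Sox9.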
